A study of Mus musculus with 8 samples.

Results

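The genes described here mark B lymphocytes and plasma cells, and they were chosen by symbol for their known roles in these cells. The 9 genes were Cd79a, Cd79b, Ms4a1, Cd22, Blk, Spib and Pou2af1 for B lymphocytes, and Jchain and Mzb1 for plasma cells. Of these, 8 genes were measured, by 10 of the 45037 probe sets tested, and they were 8 of 17097 genes tested. Mzb1 was matched to no probe set under its symbol, and its level was not analysed here. RNA came from ileum, the last part of the small intestine, of 4 wild type and 4 Slc51a knockout mice, with 1 array per animal. All animals were males of about 2 months on a C57BL/6 background, fasted for 4 h and given ketamine-xylazine before tissue collection. Slc51a encodes one subunit of the basolateral transporter that carries bile acids out of ileal enterocytes. The labels do not say how the gene was inactivated, whether the animals were littermates, or whether Peyer's patches, the lymphoid follicles of the ileal wall, were included in the tissue.

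B lymphocytes carry a surface immunoglobulin whose signal passes into the cell through the paired chains encoded by Cd79a and Cd79b. In the ileum many of them sit in Peyer's patches, where follicle stroma attracts them and germinal centres select those that go on to secrete IgA. Their progeny, the plasma cells, lie scattered in the lamina propria, lose much of the B lymphocyte programme, and release IgA polymers held together by the J chain. The polymeric immunoglobulin receptor of the epithelium then carries these polymers into the lumen.

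The sequences just upstream of the start site are shown for the 5 measured members that the RefSeq promoter table (GRCm38.p6) holds, because 3 of them encode B lymphocyte genes that fell in the knockout, and Cd79a and Jchain are the 2 members that were not called. Each is the 250 bases before the start, 5′ to 3′ on the gene's strand. The windows are chr7:44532072-44532321, minus strand, for Spib; chr9:51213440-51213689, plus strand, for Pou2af1; chr7:30879029-30879278, minus strand, for Cd22; chr7:24897247-24897496, plus strand, for Cd79a; and chr5:88527898-88528147, minus strand, for Jchain. Capitals mark matches, on either strand, to the octamer ATGCAAAT, to TGCAAAT, which is the octamer without its first base, to GAGGAA, a core bound by the Ets factors PU.1 and Spi-B, and to CCCNNGGG, a core bound by EBF1.
Spib: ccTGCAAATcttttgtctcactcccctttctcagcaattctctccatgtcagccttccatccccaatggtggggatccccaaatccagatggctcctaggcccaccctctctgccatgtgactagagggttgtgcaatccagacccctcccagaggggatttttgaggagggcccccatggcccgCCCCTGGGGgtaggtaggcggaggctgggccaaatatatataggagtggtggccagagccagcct
Pou2af1: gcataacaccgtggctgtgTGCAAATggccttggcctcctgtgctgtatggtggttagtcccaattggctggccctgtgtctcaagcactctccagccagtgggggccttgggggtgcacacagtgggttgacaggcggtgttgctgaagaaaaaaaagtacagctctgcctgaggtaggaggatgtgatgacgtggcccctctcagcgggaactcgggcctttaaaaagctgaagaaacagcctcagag
Cd22: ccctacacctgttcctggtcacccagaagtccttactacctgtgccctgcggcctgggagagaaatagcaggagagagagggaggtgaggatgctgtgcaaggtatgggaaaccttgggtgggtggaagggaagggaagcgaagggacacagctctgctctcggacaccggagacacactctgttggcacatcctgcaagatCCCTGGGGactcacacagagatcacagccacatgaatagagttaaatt
Cd79a: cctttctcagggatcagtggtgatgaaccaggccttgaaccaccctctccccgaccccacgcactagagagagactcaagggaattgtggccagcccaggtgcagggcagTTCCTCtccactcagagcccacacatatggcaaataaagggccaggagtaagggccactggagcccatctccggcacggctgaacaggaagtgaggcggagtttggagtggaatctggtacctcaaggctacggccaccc
Jchain: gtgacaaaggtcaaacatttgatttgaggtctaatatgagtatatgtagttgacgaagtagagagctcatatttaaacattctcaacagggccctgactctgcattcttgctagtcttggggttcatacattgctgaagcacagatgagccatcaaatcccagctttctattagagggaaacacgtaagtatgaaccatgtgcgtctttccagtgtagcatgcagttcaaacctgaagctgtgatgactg
None of the 5 windows held the whole octamer, which was present in 1.6% of the 32851 promoter windows of this length. The shorter TGCAAAT, added to the search after the windows were seen and contained in every octamer, began at position -248 of Spib and -231 of Pou2af1, counted back from the start site. It occurred in 3.56% of all windows. CCCNNGGG matched Spib at -65 and -64, as 2 overlapping matches, and Cd22 at -48, against 11.8% of all windows with a match. GAGGAA matched the opposite strand of the Cd79a window at -140, and 23.3% of all windows held it. Jchain held none of the 4 motifs. These matches are descriptions of letters, and binding was not measured.

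The libraries and the tissue were checked first. Slc51a itself stood at 11.3 to 11.4 in wild type and 4.50 to 4.68 in knockout arrays on the log2 scale, in which 1 unit is a doubling. The median probe set lay between 4.559 and 4.604 on every array, and values near or under 4.581, the median over arrays, are called dim here. Of the ileal markers, the bile acid binding protein gene Fabp6 averaged 13.11 in wild type and 13.18 in knockout arrays and was not called. Slc10a2, the apical bile acid carrier, fell by 0.45. Fgf15 was not called (limma adjusted p 0.305), but was called higher in the knockout without wild type replicate 4 (+0.89, adjusted p 0.041). Among 6 epithelial markers, 1 rose and 2 fell, with 1 and 1 without the 3 arrays named next and 0 and 4 under cyclic loess. Wild type replicate 2 and knockout replicates 3 and 4 had the lowest hybridization controls and are called the 3 low-control arrays. Calls lost without them are given beside the gene.

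Among the 7 measured B lymphocyte members, 6 fell in the knockout and 0 rose, with a median difference of -1.02 log2 units. Over all 17097 genes, 12.9% were called lower and 17.1% higher, and the median difference was 0.01. Calls are those with an adjusted p below 0.05 in limma, with Benjamini-Hochberg adjustment over all genes. All 4 knockout values lay below all 4 wild type values for the same 6 genes, against 12.8% of all genes. The plasma cell member Jchain was not called. In whole tissue, fewer cells of a type and less RNA per cell cannot be told apart.

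**Figure D1:**
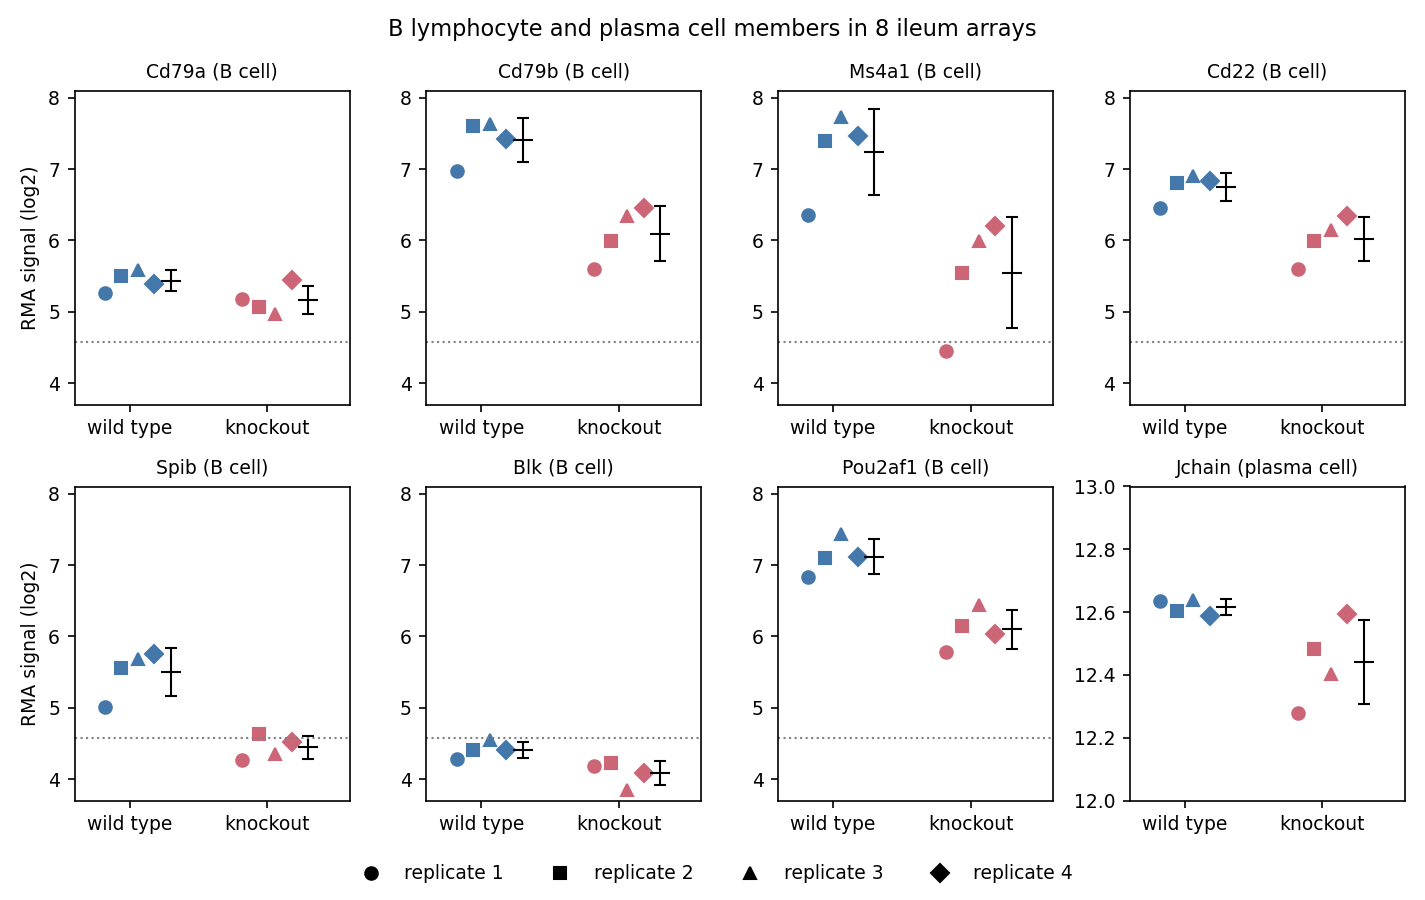
Levels of the 8 measured member genes on each array, in log2 units on the vertical axis, with the 4 wild type and 4 Slc51a knockout arrays as points shaped by replicate, and black bars for the mean ± SD. The 7 B lymphocyte genes share one axis range, in which the dotted line is the median probe set, and Jchain has its own. The groups separate for Cd79b, Ms4a1, Cd22, Blk, Spib and Pou2af1, and overlap for Cd79a and Jchain.

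Of the receptor's paired signalling chains, Cd79b fell and Cd79a was not called. Cd79b (1417640_PM_at) was at 6.97, 7.60, 7.63 and 7.42 in wild type replicates 1 to 4 and at 5.60, 5.99, 6.35 and 6.45 in knockout replicates 1 to 4. Replicate 1 was the lowest array of each genotype, and the groups did not overlap. The means were 7.40 ± 0.31 and 6.09 ± 0.39 (SD, n = 4 each), a difference of -1.31 (SE 0.19, 95% interval -1.73 to -0.89), or 2.48-fold lower, with a limma adjusted p of 0.00037. Cd79a (1418830_PM_at) was at 5.26, 5.51, 5.59 and 5.39 in wild type and at 5.18, 5.07, 4.97 and 5.44 in knockout arrays. Knockout replicate 4 lay within the wild type range, and the other 3 knockout arrays lay below it. The difference of -0.27 (SE 0.10, 95% interval -0.49 to -0.05) had a limma adjusted p of 0.0667. Without knockout replicate 4 it was -0.36 with a limma adjusted p of 0.00812, and without wild type replicate 1 it was -0.33 with 0.0373. Leaving out any other single array gave no call, with a limma adjusted p of up to 0.175, at -0.21 without knockout replicate 3. The intervals of the 2 chains do not overlap, but the difference between them was not tested.

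Ms4a1 and Cd22, which encode surface proteins other than the receptor's paired chains, both fell. Ms4a1 encodes CD20, a membrane protein of B lymphocytes that plasma cells lack. Its brighter probe set (1423226_PM_at) was at 6.36, 7.40, 7.72 and 7.46 in wild type and at 4.45, 5.55, 5.99 and 6.20 in knockout arrays. The groups did not overlap, replicate 1 was lowest in both, and knockout replicate 1 lay below the median probe set. The mean went from 7.23 ± 0.60 to 5.55 ± 0.78 (SD, n = 4 each), a difference of -1.69 (SE 0.37, 95% interval -2.51 to -0.86), or 3.22-fold lower, with a limma adjusted p of 0.0052. This was the largest fall among the members. The second Ms4a1 probe set (1450912_PM_at) was at 4.25, 5.54, 5.74 and 5.28 in wild type and at 3.08, 3.61, 4.11 and 4.28 in knockout arrays. Knockout replicate 4 lay just above the lowest wild type array, so these groups overlapped, and the difference was -1.43 (SE 0.32, limma adjusted p 0.0078 over all probe sets).

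Cd22 encodes a sialic acid binding coreceptor that dampens the receptor's signal. Its probe set, 1419768_PM_at, was at 6.46, 6.81, 6.90 and 6.84 in wild type and at 5.60, 5.99, 6.14 and 6.35 in knockout arrays, again with replicate 1 lowest in both genotypes and no overlap. The mean fell from 6.75 ± 0.20 to 6.02 ± 0.31 (SD, n = 4 each), by 0.73 log2 units (SE 0.14), or 1.66-fold, with a limma adjusted p of 0.0028. A second Cd22 probe set (1419769_PM_at) lay below the median probe set on every array, between 3.60 and 3.99, and its difference of -0.18 (SE 0.07) was not called (limma adjusted p 0.109 over all probe sets). With the mean of both probe sets, the Cd22 difference was -0.46. Blk encodes a Src-family kinase that acts just downstream of the receptor. Its values on probe set 1422775_PM_at were 4.28, 4.41, 4.55 and 4.41 in wild type and 4.18, 4.22, 3.85 and 4.08 in knockout arrays, all below the median probe set. The groups did not overlap by a narrow margin, and the difference was -0.33 (SE 0.08), or 1.26-fold lower, with a limma adjusted p of 0.0122. Without the 3 low-control arrays it was -0.21 with a limma adjusted p of 0.130, and with those controls as a covariate -0.25 with 0.0714.

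Both transcriptional regulators fell by about the same amount. Spib encodes the Ets factor Spi-B, which B lymphocytes need for receptor signalling and which is also known from M cells and plasmacytoid dendritic cells. Its probe set, 1460407_PM_at, was at 5.02, 5.56, 5.68 and 5.75 in wild type and at 4.28, 4.63, 4.36 and 4.52 in knockout arrays. Every knockout array lay under every wild type array, and 3 of the 4 knockout arrays were below the median probe set. The means were 5.50 ± 0.33 and 4.45 ± 0.16 (SD, n = 4 each), 2.08-fold lower in the knockout, with a difference of -1.05 (SE 0.14) and a 95% interval of -1.37 to -0.74, and a limma adjusted p of 0.00026. Pou2af1 encodes the coactivator of octamer-binding factors, which is active in B lymphocytes and also in plasma cells, and it is counted here with the B lymphocyte members. Its probe set, 1416957_PM_at, was at 6.83, 7.10, 7.43 and 7.11 in wild type and at 5.78, 6.15, 6.44 and 6.03 in knockout arrays. These groups did not overlap either, and replicate 1 was lowest in both, with means of 7.12 ± 0.25 and 6.10 ± 0.27 (SD, n = 4 each). The difference was -1.02 (SE 0.14, 95% interval -1.33 to -0.70), or 2.03-fold lower, with a limma adjusted p of 0.0003.

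Jchain, which encodes the joining chain of polymeric IgA, read near the top of the arrays' range. Its probe set, 1424305_PM_at, was at 12.64, 12.60, 12.64 and 12.59 in wild type and at 12.28, 12.48, 12.40 and 12.60 in knockout arrays, on arrays whose brightest probe sets stood between 13.225 and 13.376. Knockout replicate 4 lay within the wild type range and the other 3 knockout arrays below it. The means were 12.62 ± 0.02 and 12.44 ± 0.13 (SD, n = 4 each). The difference was -0.18 (SE 0.06, 95% interval -0.32 to -0.04), or 1.13-fold lower, with a limma adjusted p of 0.0605. Without knockout replicate 4 it was -0.23 with a limma adjusted p of 0.0126. Under cyclic loess normalisation it was -0.28 with 0.00756. Other alternatives gave a smaller difference and no call. It was -0.12 with a limma adjusted p of 0.141 without knockout replicate 1, and -0.15 with 0.109 under median centring. Whether the top of the scale limited this difference was not tested.

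**Figure D2:**
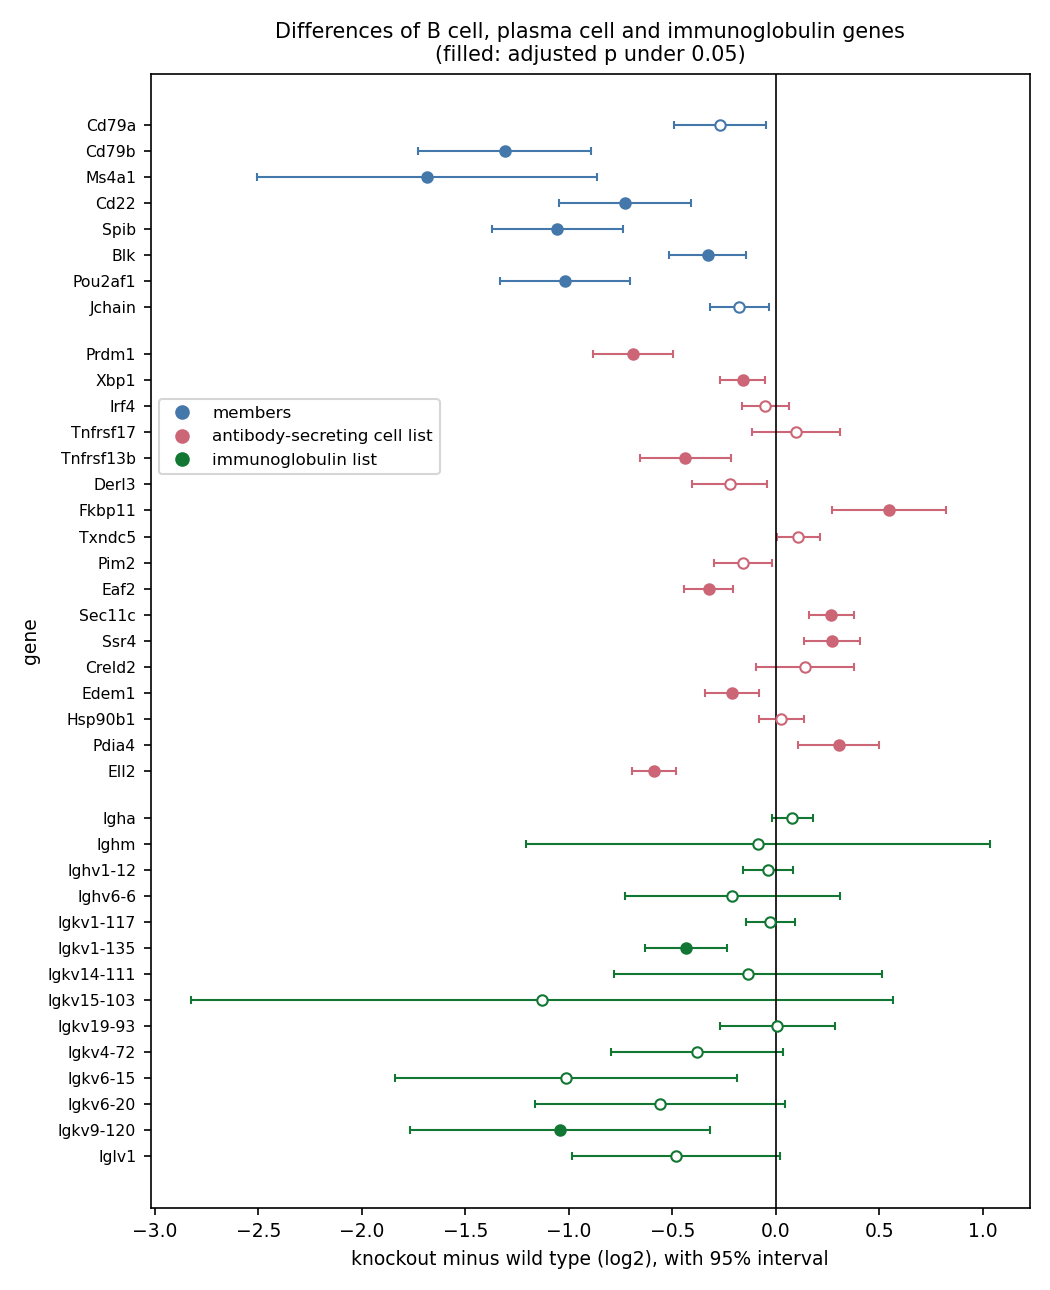
Difference between Slc51a knockout and wild type means, in log2 units on the horizontal axis, for the 8 measured members, the antibody-secreting cell list and the immunoglobulin list, with 95% intervals as bars and filled points for genes called by limma. Among the members, Ms4a1 lies furthest below 0 at -1.69 and Jchain nearest to it at -0.18, and the antibody-secreting list has called genes on both sides.

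In the fit over probe sets, 7 of the 10 member probe sets were called lower, where 9.81% of all 45037 probe sets were. The 3 others were those of Cd79a and Jchain and the dim second Cd22 probe set. The B lymphocyte members shared part of their course across arrays, which includes the difference between genotypes. Among knockout arrays the order differed, with Cd79a and Blk lowest in replicate 3 and not in replicate 1. Averaged over the 7 B lymphocyte members, the departure from the wild type mean was -0.38, 0.08, 0.23 and 0.07 log2 units in wild type replicates 1 to 4. In knockout replicates 1 to 4 it was -1.26, -0.89, -0.82 and -0.68. Wild type replicate 1 was the lowest wild type array for 7 of 7 members, as it was for 27.3% of all genes and 34.3% of genes called lower. Knockout replicate 1 was the lowest knockout array for 5 of 7, as it was for 18.8% of all genes. The departures of Jchain were 0.02, -0.01, 0.02 and -0.03 in wild type and -0.34, -0.13, -0.21 and -0.02 in knockout arrays. Knockout replicate 1 was lowest and knockout replicate 4 highest both for Jchain and for the mean of the B lymphocyte members, but not for every member. Knockout replicate 4 was the highest knockout array for 4 of 7, as it was for 29.7% of all genes. Whether Jchain moved less than the B lymphocyte members was not tested. The SD was larger in the knockout than in the wild type arrays for 6 of the 7 B lymphocyte members. The margin was narrow for Pou2af1 (0.27 against 0.25), and the share over all genes was not counted.

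**Figure D3:**
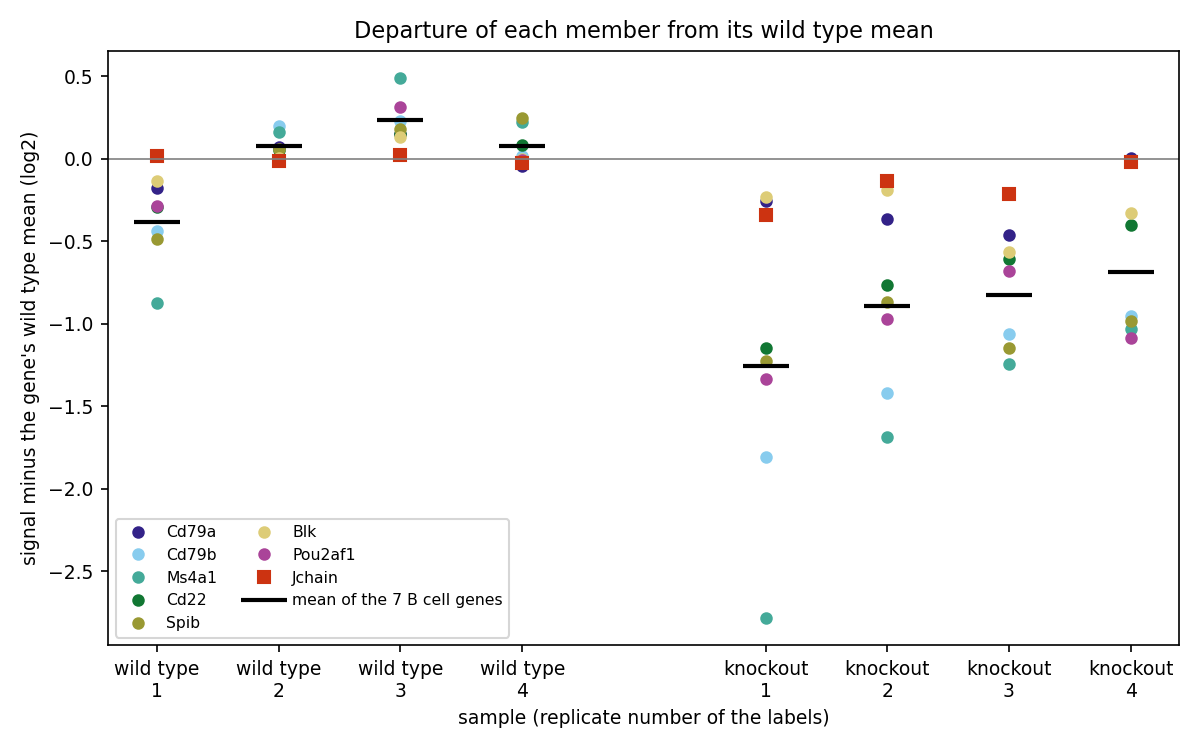
Departure of each array from the wild type mean, in log2 units on the vertical axis, for the 7 B lymphocyte members (circles), their mean (black bars) and Jchain (squares), with the arrays along the horizontal axis. The mean of the B lymphocyte members runs from -1.26 to -0.68 in knockout arrays, and Jchain from -0.34 to -0.02.

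Genes of the receptor pathway beyond the members were read from a list of 28, of which 25 were measured. Here 15 fell, 1 rose and 9 were not called, with a median difference of -0.30. Pik3ap1, an adaptor that links the receptor to PI3 kinase, fell by 0.70 log2 units (SE 0.07, limma adjusted p 2.8e-05). Cd72, an inhibitory coreceptor, fell by 1.03 (SE 0.15, limma adjusted p 0.00047). Cd53, a tetraspanin found on many leukocytes, differed by -0.78 (limma adjusted p 0.0014), and Ly86, a partner of a Toll-like receptor homologue, by -0.59 (limma adjusted p 0.00096). With the mean of each gene's probe sets, Pik3ap1 was at -0.37 and Cd53 at -0.45, both still called. Cr2, the complement receptor of B lymphocytes and follicular dendritic cells, fell by 0.45 (SE 0.13, limma adjusted p 0.019), and lost its call without wild type replicate 3 or knockout replicate 1 (both adjusted p 0.055). The gene that rose was the adaptor Blnk, at +0.38 (SE 0.07, limma adjusted p 0.0023), named after its value was seen.

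Of 15 B lymphocyte transcription factors, all measured, 8 fell and 0 rose. Bach2, a repressor that holds cells in the B lymphocyte state, fell by 1.32 (SE 0.11, limma adjusted p 1.6e-05). Its other called probe set differed by -1.80, and a dim one by -0.03. Ikzf1, a lymphoid zinc finger factor, fell by 1.13 (SE 0.13, limma adjusted p 6.7e-05), while its dim second probe set differed by 0.02. Ebf1, an early B lymphocyte factor that is also known from stromal cells, fell by 0.77 (SE 0.15, limma adjusted p 0.0026), with every knockout array below the median probe set. Bcl6, the factor of germinal centres, fell by 0.46 (SE 0.08, limma adjusted p 0.0019). With the mean of probe sets, Ikzf1 was at -0.56, Ebf1 at -0.43 and Bcl6 at -0.23, all still called. Pax5, the factor that fixes B lymphocyte identity, was dim on all arrays, and its difference of 0.10 (SE 0.05) was not called.

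The genes of antibody-secreting cells went in both directions. Of 17 measured out of 21 listed, 6 fell, 4 rose and 7 were not called, with a median of -0.05. Calls over all genes also went in both directions, with 12.9% lower and 17.1% higher. Ell2, an elongation factor that favours secreted immunoglobulin transcripts, fell by 0.59 (SE 0.05, limma adjusted p 1.2e-05). Prdm1, the factor Blimp-1 that drives plasma cell differentiation and is also known from enterocytes and T lymphocytes, fell by 0.69 (SE 0.09, limma adjusted p 0.00016). Eaf2, a partner of Ell2, fell by 0.33 (SE 0.05). Xbp1, a factor of the secretory pathway also active in other secretory cells, fell by 0.16 (SE 0.05, limma adjusted p 0.030). That call was lost on leaving out wild type replicate 1, 2 or 4 or knockout replicate 2 or 3 (adjusted p 0.056 to 0.089), without the 3 low-control arrays (0.203), with hybridization controls as covariate (0.126) and under median centring (0.060). Under cyclic loess the Xbp1 difference was -0.26 (limma adjusted p 0.0020). Irf4 (-0.05, SE 0.05) and Tnfrsf17, the receptor BCMA of long-lived plasma cells (0.10, SE 0.10), were not called.

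The 4 that rose encode proteins of the secretory pathway that many cell types share. Sec11c, a signal peptidase subunit, was at +0.27 (SE 0.05, limma adjusted p 0.0018). The other three were named after their values were seen, and they were Fkbp11 at +0.55 (SE 0.13, adjusted p 0.0065), Ssr4 at +0.27 (SE 0.06, adjusted p 0.0056) and Pdia4 at +0.30 (SE 0.09, adjusted p 0.024), all from limma. Without the 3 low-control arrays, Fkbp11 was at 0.32 (adjusted p 0.058), and with the mean of probe sets at 0.19 (adjusted p 0.036). Ssr4 lost its call under cyclic loess (0.18, adjusted p 0.066) and with the mean of probe sets (0.10, adjusted p 0.078). Sec11c was at 0.17 under cyclic loess, still called. The Pdia4 call was lost without wild type replicate 2 or 3 or knockout replicate 4 (adjusted p 0.051 to 0.070), without the 3 low-control arrays (0.201), with hybridization controls as covariate (0.078) and under cyclic loess (0.069). Edem1, another secretory pathway gene of the list, fell by 0.21 (SE 0.06, limma adjusted p 0.018) and was named after its value was seen. Its call was lost without wild type replicate 1 or knockout replicate 3 (adjusted p 0.053 to 0.055). Without the 3 low-control arrays its adjusted p was 0.219, and with hybridization controls as covariate 0.085.

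The 14 immunoglobulin genes had a median difference of -0.30, and 3 of them averaged below the median probe set in both genotypes. Their SE reached 0.77, for Igkv15-103, named after its value was seen, and such spread limits what can be called. Of the 14, 2 fell and 12 were not called, where 12.9% of all genes were called lower. The count was 1 on leaving out wild type replicate 2 or knockout replicate 2, 3 or 4, and 4 on leaving out wild type replicate 4. It was 1 without the 3 low-control arrays, with array weights or with a trended and robust prior, and 4 with hybridization controls as covariate. Igkv1-135, a kappa variable gene, fell by 0.43 (SE 0.09, limma adjusted p 0.0035), and was at -0.28 with the mean of its probe sets, still called. Igkv9-120 fell by 1.04 (SE 0.33, limma adjusted p 0.033), and its call was lost without wild type replicate 2 or knockout replicate 2, 3 or 4 (adjusted p 0.061 to 0.081). It was also lost without the 3 low-control arrays (0.232), with the trended and robust prior (0.127), with hybridization controls as covariate (0.074) and with array weights (0.055). Without wild type replicate 1 the Igkv9-120 difference was -0.66, and with the mean of probe sets -0.55, both called. Ighm, the constant region of IgM, was at 6.72, 5.90, 8.49 and 5.58 in wild type and at 6.25, 6.43, 7.08 and 6.58 in knockout arrays. Wild type replicates 3 and 4 enclosed all knockout values, and the difference was -0.09 (SE 0.51, limma adjusted p 0.93). Igha, the constant region of IgA, was dim on every array, at 3.51 to 3.68, while Jchain stood at 12.28 to 12.64. Its difference of 0.08 (SE 0.05) was not called, and whether the Igha probe set detects IgA RNA was not tested. Immunoglobulin genes share sequence, so probe sets of this family may not tell its genes apart.

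In the list for IgA transport and the switch to IgA, 4 of 10 measured genes fell and 0 rose; 2 were called with the mean of each gene's probe sets. Pigr, the epithelial receptor that carries polymeric IgA, fell from a mean of 12.43 to 12.17, by 0.26 (SE 0.04, limma adjusted p 0.00077). Smad3 and Runx3, which act in the signal for IgA switching and in many other cells, fell, with differences of -0.34 and -0.28, and Nfkbiz, an inhibitor-like partner of NF-κB, differed by -0.37. These had limma adjusted p from 0.0012 to 0.0072. Without the 3 low-control arrays, Nfkbiz was at -0.35 (adjusted p 0.064). With the mean of probe sets, Smad3 was at -0.09 (adjusted p 0.22) and Runx3 at -0.09 (adjusted p 0.17).

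Of 25 measured genes for survival, homing and follicles, 16 fell, 3 rose and 6 were not called, with a median of -0.31. Cxcl13, the chemokine with which follicle stroma attracts B lymphocytes, was at 7.08, 8.01, 8.07 and 7.31 in wild type and at 5.15, 6.45, 6.89 and 6.79 in knockout arrays. The groups did not overlap, and replicate 1 was lowest in both. The difference was -1.29 (SE 0.36, limma adjusted p 0.018), with adjusted p of 0.054 without wild type replicate 2, 0.053 without wild type replicate 3, and 0.087 with a trended and robust prior. Its receptor gene Cxcr5 was dim on all arrays and fell by 0.31 (SE 0.10, limma adjusted p 0.036). That call was lost without any one of wild type replicates 2, 3 and 4 and knockout replicates 1 and 2 (adjusted p 0.078 to 0.098). Ccl20, a chemokine of the epithelium over follicles, fell by 0.80 (SE 0.12). The gut homing genes Itga4, Itgb7 and Ccr9 fell, with differences of -0.54, -0.34 and -0.67 and limma adjusted p from 0.00021 to 0.00051. With the mean of probe sets, Itga4 was at -0.16 and Ccr9 at -0.26, both still called.

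Both main survival ligands of the B lymphocyte lineage were called, in opposite directions, and were named after their values were seen. Tnfsf13b, which encodes BAFF, fell by 0.78 (limma adjusted p 0.00057), with -0.31 (limma adjusted p 0.0094) from the mean of its probe sets, and Tnfsf13, which encodes APRIL, rose by 0.44 (SE 0.07, limma adjusted p 0.0010). The other two that rose were also named after their values were seen. They were Ltbr, the lymphotoxin receptor, at +0.24 (SE 0.07, limma adjusted p 0.028), and the cytokine gene Il21, dim on all arrays, at +0.19 (SE 0.05, limma adjusted p 0.016). The Ltbr call was lost without wild type replicate 1 or 3 or knockout replicate 2, 3 or 4 (adjusted p 0.056 to 0.075), without the 3 low-control arrays (0.114), with hybridization controls as covariate (0.110) and under cyclic loess (0.076). The Il21 call was lost without the 3 low-control arrays, with hybridization controls as covariate, and with the mean of probe sets (adjusted p 0.054 to 0.083).

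Germinal centre genes numbered 11 measured, of which 6 fell and 0 rose. Rgs13, a regulator of G protein signals in germinal centre B lymphocytes that is also known from mast cells and tuft cells, fell by 1.28 (SE 0.15, limma adjusted p 8.5e-05). Basp1 fell by 0.76 (limma adjusted p 0.00022), and the death receptor gene Fas fell by 0.46 (limma adjusted p 0.0017), with an adjusted p of 0.059 without the 3 low-control arrays. Of 13 genes of M cells and the epithelium over follicles, 7 fell and 1 rose. The count was 4 on leaving out wild type replicate 1 or 3 or the 3 low-control arrays, and with hybridization controls as covariate. Clu fell by 1.48 (SE 0.30, limma adjusted p 0.0033) and Marcksl1 fell by 0.48 (SE 0.06, limma adjusted p 0.00015), and Ccl9 rose by 0.39 (SE 0.10, limma adjusted p 0.012). Gp2, the uptake receptor of mature M cells, was dim and fell by 0.22 (limma adjusted p 0.032), a call lost without wild type replicate 1, 2 or 3 or knockout replicate 3 or 4 (adjusted p 0.071 to 0.089). Without the 3 low-control arrays Gp2 was at -0.10 (adjusted p 0.425), and with hybridization controls as covariate at -0.22 (adjusted p 0.092). Of 5 measured genes of plasmacytoid dendritic cells, which also express Spib, 2 fell and the median was 0.07. That count was 1 on leaving out wild type replicate 2, 3 or 4 or knockout replicate 1 or 3, and without the 3 low-control arrays. Tcf4, the factor of that lineage, fell by 0.41 (limma adjusted p 0.032), and its call was lost without any one of those 5 arrays (adjusted p 0.065 to 0.092) and without the 3 low-control arrays (0.083).

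Over all 9 lists without the members, 63 of 132 measured genes fell, 9 rose and 60 were not called, with a median of -0.21, beside 12.9% of all genes called lower and 17.1% called higher. Without the 3 low-control arrays, 43 were called lower and 5 higher.

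**Figure D4:**
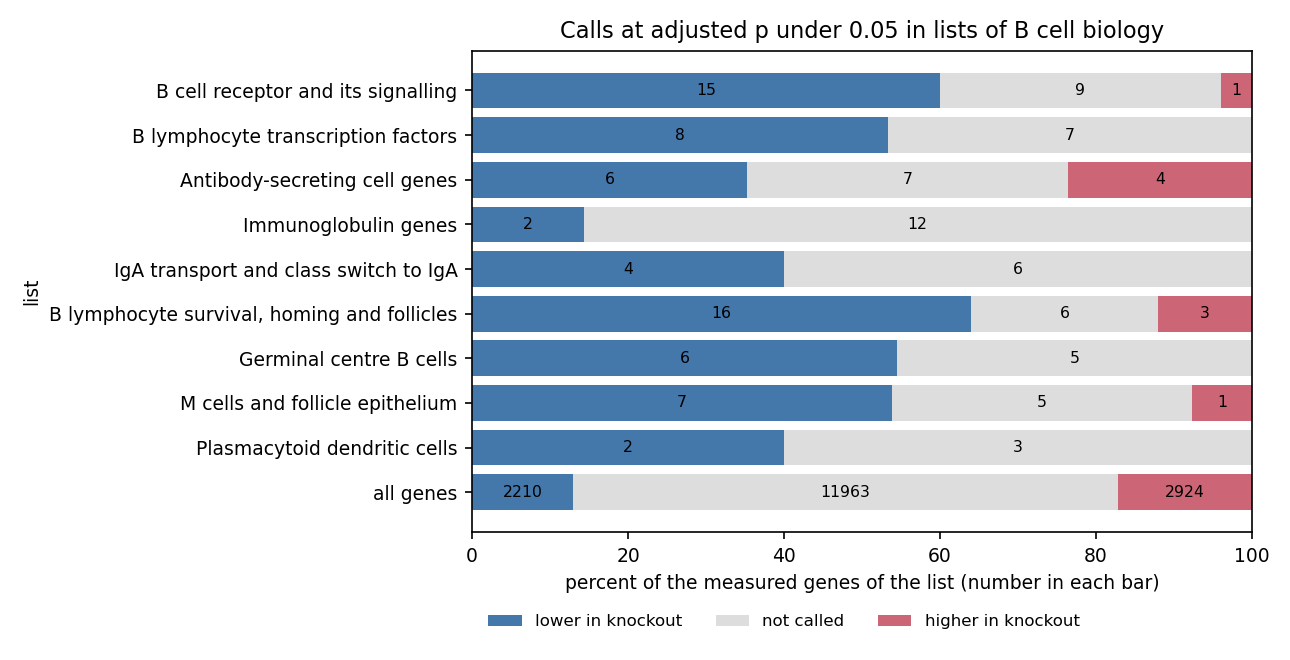
Percent of the measured genes of each of the 9 lists, and of all genes, that were lower in the knockout, not called or higher in the knockout by limma at an adjusted p of 0.05, with the number of genes written in each bar. Lower genes make up 15 of 25 in the receptor list, 16 of 25 in the survival and homing list, and 2 of 14 among immunoglobulin genes. The median differences of these lists were -0.30, -0.31 and -0.30.

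The genes closest to 3 of the members in their course over the 8 arrays were found among 10922 genes at or above the median probe set, by the root mean square distance after each gene was centred on its mean. Nearest to Cd79b were Ptprc, the pan-leukocyte phosphatase CD45, at 0.142, the leukocyte actin regulator Coro1a at 0.144, the BAFF receptor gene Tnfrsf13c at 0.150, and the interferon-inducible Ifi209 at 0.159. The median distance to Cd79b over all candidates was 0.737. Nearest to Ms4a1 were H2-Ob, a chain of the peptide-loading modulator of B lymphocytes, at 0.189, and then Cxcl13 at 0.323, the cytochrome gene Cyp3a25 at 0.324 and the lymphocyte inhibitory receptor gene Btla at 0.330, with a median of 1.05. Nearest to Spib were Ifi209 at 0.151, Celf2 at 0.155, the Ets factor gene Ets1 at 0.162 and the water channel gene Aqp1 at 0.162, with a median of 0.589. Distances are in log2 units, describe these arrays only, and share the difference between genotypes.

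Markers of some other cell types also fell, while those of others did not fall as a group. All 5 measured pan-leukocyte markers fell, with a median of -1.04, and Ptprc fell by 1.28 (limma adjusted p 0.00015). Their summed linear signal was 1866 to 2247 in wild type and 797 to 1187 in knockout arrays, with no overlap. Knockout replicate 1 was the lowest knockout array for 5 of these 5, and wild type replicate 1 the lowest wild type array for 4 of 5. Of 7 T lymphocyte markers, 6 fell, and their sum was 431 to 465 in wild type and 271 to 283 in knockout arrays. The T lymphocyte count was 5 on leaving out wild type replicate 2, 3 or 4 or knockout replicate 1 or 2. It was also 5 without the 3 low-control arrays, in the fit over probe sets, and under quantile normalisation, median centring or cyclic loess. With dim genes left out, 4 of 5 tested T lymphocyte markers fell. All 5 MHC class II genes, which B lymphocytes share with other antigen-presenting cells, fell, and their sum was 9960 to 10571 in wild type and 1927 to 3964 in knockout arrays. H2-Ab1 fell by 2.20, and Cd74 fell by 1.99. Of 6 macrophage and dendritic cell markers, 2 fell and 0 rose, with a sum of 10198 to 10588 in wild type and 8715 to 9686 in knockout arrays. Their count was 1 on leaving out wild type replicate 1, 3 or 4 or knockout replicate 4, and 3 on leaving out wild type replicate 2 or knockout replicate 3. It was 1 to 3 under the alternatives on the same samples and 3 without the 3 low-control arrays. All 4 smooth muscle markers fell, with a sum of 3245 to 4282 in wild type and 2089 to 2475 in knockout arrays. The sum of 6 epithelial markers was 31813 to 32707 in wild type and 30753 to 32868 in knockout arrays, and these ranges overlap. Of 3 measured markers of lymphatic and stromal cells, 1 rose and 0 fell. The part of any of these cell types, or of the amount of lymphoid tissue sampled, in the fall of the B lymphocyte members was not tested.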

How the data were processed

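Total RNA (250 ng per sample) was labelled with a 3′ kit and hybridised to Affymetrix arrays, 1 per mouse, per the labels' protocols. The authors deposited log2 expression values per probe set, and the submitters' processing notes name RMA. The scale was checked against the value range. Array number limits the precision. Of 45141 probe sets, 104 controls were left out. The platform annotation gave 28898 probe sets 1 symbol, 551 several and 15588 none, and 28689 matched RefSeq by Entrez number. Each gene was read from its brightest single-symbol probe set. All 8 arrays entered one linear model with moderated variances (limma 3.58.1 under R 4.3.3). Its 2-sided p-values were adjusted by the Benjamini-Hochberg method, over 17097 genes or 45037 probe sets. It was tested on simulated data. Figures used matplotlib 3.10.9.

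The members and lists were chosen with earlier results of these data known. Named were all members, 12 measured genes of 16 named whatever their values, and up to 4 called genes per list, taken by smallest adjusted p, plus the 4 nearest genes of 3 members. Slc51a and the cell type markers Fabp6, Slc10a2, Fgf15, H2-Ab1 and Cd74 were named outside this rule. Other genes outside it are said to be so. The labels call the samples biological replicates. Alternatives were other normalisations, probe set summaries, filters, priors, array weights, a replicate block, hybridization controls as covariate, and leaving out arrays. Same-numbered wild type and knockout arrays were compared over all genes, and their deviations correlated at between -0.05 and 0.22, so the numbers were not treated as pairs.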

Additional observations from a re-analysis of the deposited data

Results flagged for a closer look

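In groups of 4 arrays, 1 array stood far from the others in 4 of 140 groups, or 2.86%, where chance gives about 1 group in 20. The groups came from 70 probe sets, 10 of them those of the members. The measure is the gap to the nearest array divided by the range of the group. Eaf2 in wild type replicate 4 was at 5.13, below the 5.31 to 5.33 of the other wild type arrays (gap share 0.890). Igkv1-135 in wild type replicate 1 was at 6.36, above 5.93 to 5.98 in the others (gap share 0.890). Itga4 in wild type replicate 3 was at 6.64, above 6.40 to 6.44 in the others (gap share 0.856). Cyp3a25 in knockout replicate 1 was at 7.78, below 8.88 to 8.98 in the other knockout arrays (gap share 0.914). None of the 8 measured members was among them.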

How the results depend on the processing

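Of 159 member differences under the alternatives, 149 kept their direction and side of the threshold, 8 gained a call, 2 lost it and 0 reversed. Of 98 counts, 6 lay more than 1.5 times from the reported count or rose from a reported count of 0. Across all alternatives, 5 to 7 B lymphocyte members, 5 to 9 member probe sets and 43 to 66 list genes were called lower; leaving out 1 array gave Ms4a1 differences of -1.98 to -1.32. The count of plasma cell members called was 1 rather than 0 with dim genes left out, cyclic loess, a trended and robust prior, or array weights, and 0 to 1 on leaving out each array. The Jchain difference was -0.18 (adjusted p 0.0494) with dim genes left out, -0.28 (0.00756) with cyclic loess, -0.18 (0.0260) with the trended and robust prior, -0.19 (0.0301) with array weights, and -0.23 to -0.12 on leaving out each array. The Jchain adjusted p ran from 0.0126 to 0.141 on leaving out each array, and was 0.109 under median centring. Cd79a was at -0.30 (adjusted p 0.0328) with array weights and at -0.36 to -0.21 (adjusted p 0.00812 to 0.175) on leaving out each array. Blk was at -0.21 (adjusted p 0.130) without the 3 arrays of lowest hybridization controls and at -0.25 (0.0714) with those controls as covariate. List genes called higher were 5 rather than 9 without those 3 arrays. The cause was not tested for any of these. With a replicate block, 6 B lymphocyte members were called, the Ms4a1 adjusted p was 1.9e-05 and that of Jchain 0.0788, and 66 list genes were lower and 10 higher. The block doubled the immunoglobulin genes called lower to 4, by Igkv15-103 (adjusted p 0.0012) and Igkv6-15 (adjusted p 0.016), named after their values were seen. Only 2 of 4 replicate numbers had their best partner under their own number. Without replicate 1 of both genotypes, chosen after seeing the data, 6 B lymphocyte members were called, with Ms4a1 at -1.61. All adjusted p-values are from limma. Signal over background limits the dim probe sets, among them Blk, Pax5, Igha, Il21, Gp2 and Cxcr5, and 4 arrays per genotype limit the precision of every value.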
